A study of Mus musculus with 12 samples.

Results

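Lcn2, Saa3, Cfb, C3, Hp and Cp are 6 acute-phase and complement genes that macrophages can transcribe, and their signals were described in macrophages with and without IRAK4 kinase activity. They were chosen by measured values as well as by function, because Lcn2, Saa3 and Cfb had been seen at lower signal in kinase-dead cells without stimulation. A probe set was a member where its single annotated gene symbol was one of the 6, which gave 12 of the 45101 probe sets and 5 of the 6 genes. C3 was not analysed here, because 0 probe sets carried its symbol in the annotation table used. Lcn2, Saa3, Cfb and Hp had 1 probe set each and Cp had 8, and 11 of the 12 passed the filter on low signal, so every gene with a probe set was measured by at least 1 tested probe set.

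Acute-phase proteins are secreted in infection and injury, mostly by the liver in answer to IL-6, IL-1 and TNF, and also by macrophages at the site of infection. Lipocalin 2 (Lcn2) captures bacterial iron carriers, serum amyloid A3 (Saa3) is an apolipoprotein made largely outside the liver in mice, and factor B (Cfb) supplies the protease of the alternative complement pathway. Haptoglobin (Hp) binds free haemoglobin, and ceruloplasmin (Cp) is a copper-carrying ferroxidase. IRAK4 is a kinase that joins the MyD88 complex under Toll-like receptors, and lipopolysaccharide (LPS), a bacterial cell-wall component, signals through one of them, TLR4.

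Total RNA from mouse bone marrow macrophages was hybridised to 12 one-colour Affymetrix arrays. Cells came from wild-type mice (WT) or from animals whose IRAK4 is kinase dead (KD), and all were cultured with L-929-conditioned medium, a source of the macrophage growth factor M-CSF. Each strain had 3 groups of 2 biological replicates: no LPS for 4 h, LPS at 1 µg/ml for 1 h, and the same LPS for 4 h. The labels used here do not state the age, sex or background strain of the mice, how the allele was made, whether every cell carries it, or how many animals stand behind each culture. The untreated cultures were kept for 4 h, so in any comparison of 1 h of LPS with no LPS the treatment and the time in culture cannot be told apart. Irak4 had 0 probe sets with its symbol, so the labels were not checked against the targeted gene.

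Every array had been scaled to a trimmed mean of 150, but the array medians lay between 18.9 and 22 in WT and between 24.2 and 26.9 in KD. Signals of the 2 replicates correlated with Spearman's rho of 0.879 to 0.913 over probe sets. The ratio of 3′ to 5′ signal, a sign of RNA integrity, was highest on the first KD array without LPS (log2 1.35 for Gapdh and 3.03 for Actb, against 0.81 to 1.17 and 2.21 to 2.83 on the other arrays). Differences are on the log2(signal + 4.4) scale, and a probe set was called at a Benjamini-Hochberg adjusted p below 0.05 in a limma fit over all 12 arrays and 27931 tested probe sets. Without LPS, 2.87% of tested probe sets were called lower in KD and 2.37% higher. At 1 h of LPS 0.533% were lower and 0.573% higher, and at 4 h 2.24% were lower and 3.13% higher. With the arrays rescaled to a common median, 8.97% were called lower and 0.648% higher without LPS, 12.7% and 0.505% at 1 h, and 14.8% and 1.42% at 4 h. That rescaling moved the median KD minus WT difference of all probe sets from 0.03 to -0.18 without LPS, from 0.05 to -0.25 at 1 h and from 0.08 to -0.22 at 4 h. The direction of the KD minus WT difference at the 5 genes' representative probe sets did not flip under it.

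RefSeq promoter stretches (build GRCm38.p6) were held for 3 of the 5 measured genes, Lcn2, Saa3 and Cp. The 250 bases upstream of the start are shown for Lcn2 (chr2:32387740-32387989, minus strand) and Saa3 (chr7:46715677-46715926, minus strand). These genes were called lower in KD at 1 h and 4 h of LPS, as was Cfb, for which no stretch was held. Capitals mark matches to the C/EBP motif TTNCNNAA on either strand.
Lcn2: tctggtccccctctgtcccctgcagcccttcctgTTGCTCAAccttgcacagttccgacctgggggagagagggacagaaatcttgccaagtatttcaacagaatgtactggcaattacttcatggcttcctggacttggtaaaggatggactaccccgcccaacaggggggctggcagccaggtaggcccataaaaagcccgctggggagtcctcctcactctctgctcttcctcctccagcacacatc
Saa3: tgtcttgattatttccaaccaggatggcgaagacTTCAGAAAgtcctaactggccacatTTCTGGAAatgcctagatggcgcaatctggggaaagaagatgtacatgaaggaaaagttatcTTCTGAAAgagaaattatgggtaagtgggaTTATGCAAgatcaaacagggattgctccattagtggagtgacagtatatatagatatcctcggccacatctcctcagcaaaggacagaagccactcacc
The Lcn2 stretch held 1 such match, 216 to 209 bases before the start, and the Saa3 stretch held 4, the nearest at 99 to 92 bases before the start. A match of this kind was found in 36.8% of the 32851 promoters of the table. Neither stretch held the NF-kappaB consensus, the STAT motif TTCNNNGAA or the AP-1 motif TGANTCA on either strand; these occurred in 7.25%, 7.02% and 6.75% of promoters. Of the 2 annotated starts of Cp, each had 1 C/EBP match and 1 also had an AP-1 match. A match is a description of letters and does not show that a factor binds there.

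Lcn2 was lower in KD than in WT after LPS by a factor that varied little with time. In WT its signal (probe set 1427747_a_at) was 661.1 and 689.6 without LPS, 628.4 and 519.2 at 1 h and 1293.9 and 1379.4 at 4 h. In KD it was 142.1 and 145.1 without LPS, 151.5 and 132.2 at 1 h and 296.5 and 290.1 at 4 h. The highest KD array, at 4 h of LPS, lay below the lowest WT array, at 1 h. The KD mean was 21.3% of the WT mean without LPS, a log2 difference of -2.20 ± 0.13 (SE) that is given as a description because it chose the gene. Lcn2 was also lower in KD at 1 h, at 24.7% of WT (-1.98 ± 0.13, limma adjusted p = 1.71e-07), and at 4 h, at 21.9% of WT (-2.17 ± 0.13, adjusted p = 2.14e-08). In such bulk samples, fewer cells of one type and less RNA per cell cannot be told apart.

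Lcn2 rose between 1 h and 4 h of LPS in both strains, by 1.22 ± 0.13 in WT (limma adjusted p = 2.27e-06) and by 1.03 ± 0.13 in KD (adjusted p = 3.97e-05). The strains' changes over that interval differed by -0.19 ± 0.19 (adjusted p = 0.847). Against no LPS the log2 change was -0.24 at 1 h and 0.98 at 4 h in WT, and -0.02 and 1.01 in KD, given without a test because the untreated arrays chose the gene. In each strain the Lcn2 mean was highest at 4 h. In WT the arrays at 1 h lay just below the untreated ones, and in KD those groups overlapped. Thus the 4 h KD cultures, after their rise, remained below untreated WT cultures, at 290.1 and 296.5 against 661.1 and 689.6.

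**Figure D1:**
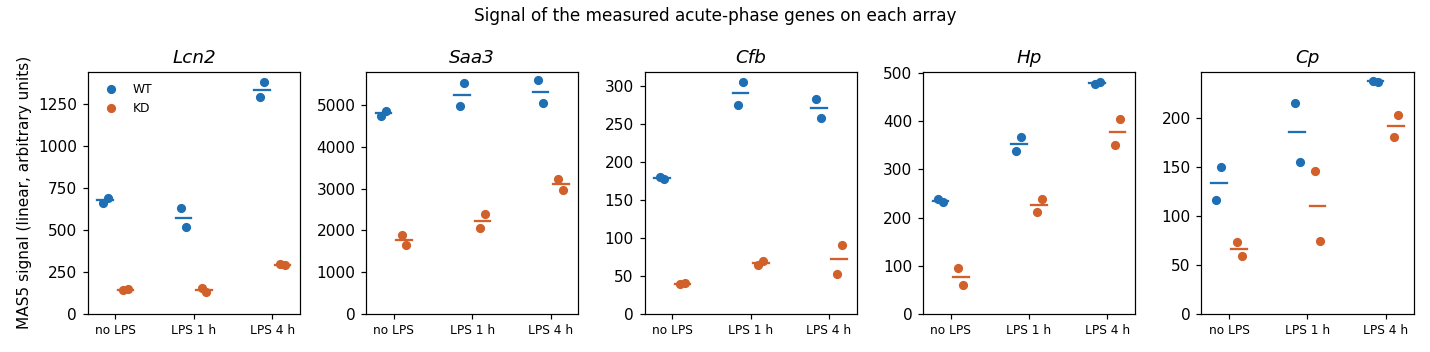
MAS5 signal (linear, arbitrary units, axes from 0) of Lcn2, Saa3, Cfb, Hp and Cp on each of the 12 arrays, with points for arrays and short lines for the means of the 2 replicates, WT in blue and KD in orange. For Lcn2, Saa3 and Cfb the 6 KD arrays lie below the 6 WT arrays, while the ranges of Hp and Cp in the 2 strains overlap across conditions.

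Saa3 was lower in KD at 1 h and 4 h of LPS, and it rose between these times in KD. Its WT signal (probe set 1450826_a_at) was 4746.2 and 4869.6 without LPS, 4978.6 and 5534.8 at 1 h and 5607.6 and 5046.3 at 4 h. In KD it was 1885.2 and 1659.9, then 2047.6 and 2395.1, then 3242.9 and 2968.0. The WT arrays at 1 h and 4 h overlapped, whereas the KD means were ordered from no LPS through 1 h to 4 h without overlap between neighbours. KD Saa3 was 36.9% of WT without LPS (-1.44 ± 0.10, a description), 42.3% at 1 h (-1.24 ± 0.10, limma adjusted p = 1.03e-06) and 58.3% at 4 h (-0.78 ± 0.10, adjusted p = 4.60e-05).

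From 1 h to 4 h Saa3 rose in KD by 0.49 ± 0.10 (limma adjusted p = 0.00261), and in WT the difference was 0.02 ± 0.10 (adjusted p = 0.931). The KD rise was not called without the first KD array at 1 h (0.37, adjusted p = 0.0691), without the first KD array at 4 h (0.42, adjusted p = 0.057) or with a variance prior without trend (adjusted p = 0.123). The difference between the strains' changes was 0.47 ± 0.14, with a 95% interval of 0.18 to 0.75 and an unadjusted p of 0.00283 in the limma fit, and it was not called over all probe sets (adjusted p = 0.172). Against no LPS, with no test, the Saa3 log2 change was 0.13 at 1 h and 0.15 at 4 h in WT, and 0.32 and 0.81 in KD. The WT value at 1 h turned to -0.03 after quantile normalization, so no direction is read from it.

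Cfb was lower in KD at both times of LPS, at a like share of WT. Its WT signal (probe set 1417314_at) was 179.8 and 177.1 without LPS, 274.8 and 304.8 at 1 h and 282.2 and 257.7 at 4 h. In KD it was 39.0 and 40.2, then 63.7 and 68.8, then 52.9 and 90.0, so the 4 h KD replicates were further apart than those of the other groups. The highest KD array, 90.0, was below the lowest WT array, 177.1. The KD mean was 22.2% of WT without LPS (-2.06 ± 0.22, a description), 22.9% at 1 h (-2.06 ± 0.22, limma adjusted p = 3.98e-05) and 26.5% at 4 h (-1.90 ± 0.22, adjusted p = 2.54e-05).

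In both strains the Cfb arrays with LPS lay above those without it, by a log2 change of 0.68 at 1 h and 0.58 at 4 h in WT and of 0.68 and 0.74 in KD, with no test. The KD value at 4 h was 1.10 without the first replicate of that group and 0.38 without the second. Between 1 h and 4 h Cfb differed by -0.10 in WT (limma adjusted p = 0.832) and by 0.06 in KD (adjusted p = 0.923), and the arrays of both times overlapped in each strain. The strains' changes over that interval differed by 0.16 ± 0.31 (adjusted p = 0.937).

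Hp rose with LPS in both strains, and its strain difference did not pass the test at 1 h or 4 h. Its WT signal (probe set 1448881_at) was 237.7 and 231.7 without LPS, 338.2 and 367.0 at 1 h and 478.1 and 481.6 at 4 h. In KD it was 94.9 and 59.6, then 211.9 and 239.3, then 350.6 and 405.2. In each strain the 3 groups followed one another in that order with no overlap of arrays. Untreated KD cells had 32.9% of the WT mean, a log2 difference of -1.58 ± 0.18 that was -1.90 without the first KD array and -1.27 without the second; the first is the array with the highest 3′ to 5′ ratios.

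At 1 h Hp in KD was 64.0% of WT (-0.64 ± 0.18, 95% interval -1.01 to -0.26), with a limma adjusted p of 0.104 that did not pass the threshold. It passed without either untreated KD array (adjusted p = 0.0332 without the first and 0.0312 without the second) and with the arrays rescaled to a common median (-0.94, adjusted p = 0.00302). At 4 h KD was 78.8% of WT (-0.34 ± 0.18, 95% interval -0.72 to 0.03, adjusted p = 0.327), and this too passed after median rescaling (-0.66, adjusted p = 0.0166).

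Against no LPS, Hp rose at 4 h in WT by 1.02 ± 0.18 (limma adjusted p = 0.000396) and in KD by 1.53 ± 0.18 at 1 h (adjusted p = 1.86e-05) and by 2.26 ± 0.18 at 4 h (adjusted p = 4.39e-08). In WT at 1 h the difference was 0.58 ± 0.18 (adjusted p = 0.0667), which passed without the first or the second untreated KD array (adjusted p = 0.0195 and 0.018). The strain difference in these responses against no LPS was not tested, because the untreated arrays took part in the choice of members. That choice named untreated values of Lcn2, Saa3 and Cfb, not of Hp or Cp, but earlier results were known. The KD tests against no LPS are limited by this, because a low untreated KD level enlarges the rise. From 1 h to 4 h Hp rose in KD by 0.73 ± 0.18 (adjusted p = 0.0139), and in WT the difference was 0.44 ± 0.18 (adjusted p = 0.113). The WT difference passed without either untreated KD array (adjusted p = 0.0412 and 0.039), and the KD rise was lost without the first KD array at 1 h (adjusted p = 0.117) or the second at 4 h (adjusted p = 0.133). These changes from 1 h to 4 h differed between the strains by 0.29 ± 0.25 (adjusted p = 0.816).

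Cp rose with 4 h of LPS in both strains, and its strain difference did not pass the test at 1 h or 4 h. Its representative probe set (1455393_at) gave 116.5 and 150.1 in WT without LPS, 215.6 and 155.1 at 1 h and 238.0 and 237.1 at 4 h. In KD it gave 72.8 and 59.0, then 145.8 and 74.3, then 180.8 and 202.5. The 1 h replicates of each strain were far apart, and each KD pair still lay below the WT pair of its condition. The KD mean was 49.4% of WT without LPS (-0.97 ± 0.26, a description). At 1 h it was 59.4% (-0.78 ± 0.26, 95% interval -1.32 to -0.25, limma adjusted p = 0.175), and at 4 h 80.7% (-0.31 ± 0.26, 95% interval -0.84 to 0.23, adjusted p = 0.585). The 1 h difference rested on which KD replicate was kept: it was -1.25 and passed (adjusted p = 0.0368) without the first and was -0.32 without the second. It also passed after median rescaling (-1.09, limma adjusted p = 0.00894), which called 12.7% of all tested probe sets lower at 1 h.

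The Cp rise with 4 h of LPS against no LPS was 1.48 ± 0.26 in KD (limma adjusted p = 0.000582) and 0.82 ± 0.26 in WT (adjusted p = 0.0312). As for Hp, a low untreated KD level enlarges the KD rise. The WT call was lost without the first untreated WT array (0.65, adjusted p = 0.251) and without either 4 h WT array (adjusted p = 0.141 and 0.121). At 1 h the differences from no LPS were 0.45 in WT (adjusted p = 0.372) and 0.64 in KD (adjusted p = 0.185), the latter being 1.10 and called (adjusted p = 0.0204) without the second KD array at 1 h. From 1 h to 4 h Cp rose in KD by 0.85 ± 0.26 (adjusted p = 0.0458), but this held in only 5 of 12 fits that left out 1 array, and without the second KD array at 1 h it was 0.38 (adjusted p = 0.502). In WT that difference was 0.37 (adjusted p = 0.393), and the strains' changes differed by 0.48 ± 0.36 (adjusted p = 0.770).

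Of the 8 Cp probe sets 7 could be compared, and these did not all give the same picture. Without LPS all 7 were lower in KD, by -1.67 to -0.44. At 1 h 6 of the 7 were lower (-0.78 to 0.01) and at 4 h 5 of the 7 (-0.76 to 0.43), and none was called at either time in the limma fit (lowest adjusted p 0.175 and 0.209). Probe sets 1448735_at and 1417497_at were higher in KD at 4 h, but not called (limma adjusted p = 0.599 and 0.682). Their signals were low, 19.7 to 40.1 and 11.1 to 37.5, against array medians of 18.9 to 26.9. They exceeded the array median on 8 and 10 of the 12 arrays. Cp was higher after 4 h of LPS than without it at all 7 probe sets in KD (0.82 to 1.67, 4 called), whereas in WT 2 were called and 1448735_at and 1417497_at were at -0.05 and -0.12. The KD rise from 1 h to 4 h was called at 1 of the 7, the representative, with adjusted p of 0.309 to 0.847 at the others. For KD at 1 h against no LPS 2 of the 7 were called, 1417495_x_at (0.91, adjusted p = 0.0348) and 1448734_at (0.99, adjusted p = 0.0357), and the representative was not. The untested probe set, 1441326_at, was below 4.4 on all 12 arrays.

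**Figure D2:**
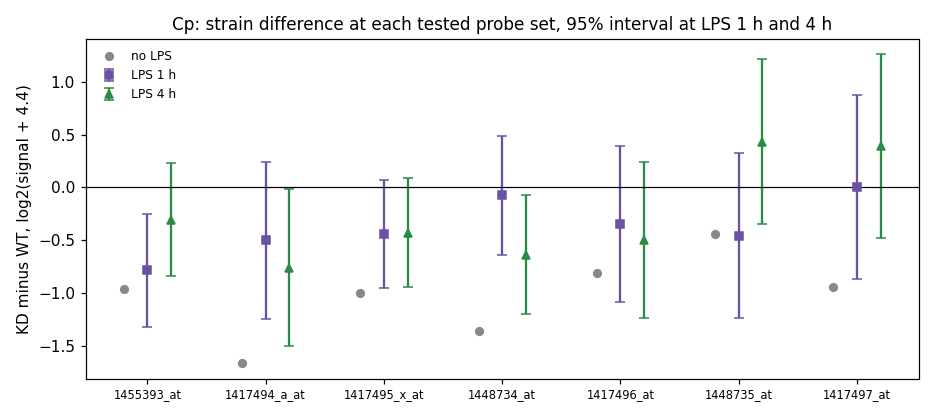
KD minus WT difference on the log2(signal + 4.4) scale at each of the 7 tested Cp probe sets, without LPS (grey circles, no interval because this contrast chose the members), at 1 h (purple squares) and at 4 h of LPS (green triangles), with 95% intervals of the limma fit. All 7 grey points lie below 0, and 2 of the 7 green points lie above it.

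Across the 5 genes, 3 were called lower in KD at 1 h and 3 at 4 h, in each case Lcn2, Saa3 and Cfb, beside 0.533% and 2.24% of all tested probe sets. These 3 genes' calls at both times held in all 12 fits that left out 1 array and under all 9 other settings tried. The highest adjusted p among those fits was 0.049, for Saa3 at 1 h. Both KD arrays lay below both WT arrays for 5 of 5 genes at 1 h, where this held for 17.3% of tested probe sets, and at 4 h, where it held for 19.4%. The same was true without LPS (21.2%), the condition from which nothing is read because it chose the members. The median KD minus WT difference of the 5 genes was -1.24 at 1 h and -0.78 at 4 h, against 0.05 and 0.08 over all tested probe sets. Over all conditions, KD arrays ranged from 132.2 to 296.5 for Lcn2, 1659.9 to 3242.9 for Saa3 and 39.0 to 90.0 for Cfb. The WT ranges of these genes, 519.2 to 1379.4, 4746.2 to 5607.6 and 177.1 to 304.8, did not overlap them. Every KD array lay below every WT array in this way for 0.297% of tested probe sets, and the untreated arrays that chose these genes are among the 12. The ranges overlapped for Hp, at 59.6 to 405.2 in KD and 231.7 to 481.6 in WT, and for Cp, at 59.0 to 202.5 and 116.5 to 238.0.

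**Figure D3:**
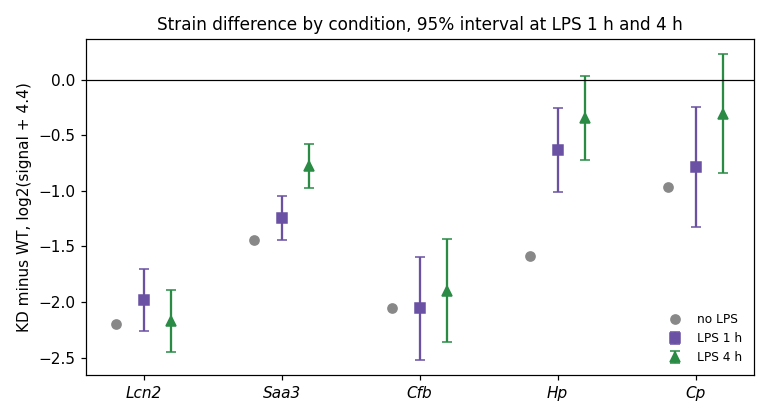
KD minus WT difference on the log2(signal + 4.4) scale for the 5 genes without LPS (grey circles, no interval because this contrast chose the members), at 1 h (purple squares) and at 4 h of LPS (green triangles), with 95% intervals of the limma fit. Lcn2 lies at -2.20, -1.98 and -2.17 and Saa3 at -1.44, -1.24 and -0.78 in that order, and the intervals of Hp and Cp at 4 h include 0.

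The LPS time course was counted in the same way. From 1 h to 4 h, Lcn2 was the 1 gene of 5 called higher in WT, where 7.10% of tested probe sets were, and Lcn2, Saa3, Hp and Cp were the 4 of 5 called higher in KD, where 4.55% were. None of the 5 was called for a strain difference in that change in the limma fit (1 of 5, Saa3, at an unadjusted p below 0.05), where 0.544% of probe sets were called in either direction. Of Hp and Cp, the 2 genes tested against no LPS, 0 were called higher at 1 h in WT in the limma fit (Hp alone at an unadjusted p below 0.05; 2.89% of probe sets were called) and both at 4 h (6.95%). In KD, Hp was called at 1 h (3.17%) and both at 4 h (5.30%), with the limit from the untreated KD arrays given above. Median rescaling also moved the split of all calls here: from 8.74% lower and 7.10% higher to 5.56% and 9.78% for 4 h against 1 h in WT, and from 3.88% and 4.55% to 2.13% and 6.44% in KD. Against no LPS it moved WT at 4 h from 10.2% and 6.95% to 6.15% and 10.5%, KD at 1 h from 2.29% and 3.17% to 2.84% and 2.58%, and KD at 4 h from 4.70% and 5.30% to 2.95% and 5.84%. For WT at 4 h against no LPS the median of all probe sets moved from -0.12 to 0.03, and for 4 h against 1 h from -0.08 to 0.04 in WT and from -0.05 to 0.07 in KD.

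Of 13 other acute-phase genes tested, 0 were called higher and 2 lower in KD without LPS, 0 and 2 at 1 h, and 1 and 1 at 4 h, beside 2.87%, 0.533% and 2.24% of all tested probe sets lower, with median differences of 0.05, -0.07 and -0.11. Mt2, a metal-binding metallothionein, was the one called lower at all 3 conditions, by -0.71 ± 0.13 (limma adjusted p = 0.00384), -0.89 ± 0.13 (0.00141) and -0.89 ± 0.13 (0.000389). Its KD arrays, 608.5 to 735.7, lay below its WT arrays, 935 to 1458.8. Ptx3, a long pentraxin that binds microbes, was lower without LPS (-0.73 ± 0.16, adjusted p = 0.0133) and at 1 h (-0.69 ± 0.16, adjusted p = 0.047), and the 1 h call was lost in 9 of 12 fits that left out 1 array. At 4 h Ptx3 was 1383.3 and 1354.2 in KD and 1926.5 and 1872.4 in WT (-0.47 ± 0.16, adjusted p = 0.114). Orm1, an acute-phase glycoprotein singled out after its values were seen, was 9.2 to 32.5 on KD arrays and 37.7 to 71.6 on WT arrays, with differences of -1.38, -1.52 and -1.17 that were not called (adjusted p = 0.0603, 0.0901 and 0.117). Ambp, the precursor of alpha-1-microglobulin, was higher in KD at 4 h (1.76 ± 0.38, adjusted p = 0.00985), at mean signals of 52.3 against 12.5, a call lost in 3 of 12 such fits. The Mt2 calls held in all 12 at 1 h and 4 h and in 11 of 12 without LPS, but at all 3 conditions they were lost with a variance prior without trend.

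In the classical and lectin pathway, 2 of 8 tested genes were called lower in KD without LPS, beside 2.87% of all tested probe sets. At 1 h 0 were called in either direction (limma, 0 also at an unadjusted p below 0.05). At 4 h 1 was called higher, beside 3.13%. The lower ones were C1ra and C1s1, the proteases of the first complement complex, at -1.10 ± 0.26 (limma adjusted p = 0.0157) and -1.09 ± 0.27 (adjusted p = 0.0236), and the higher one was Fcna, a ficolin, at 0.82 ± 0.20 (adjusted p = 0.0206). In the alternative and terminal pathway, none of the 3 tested genes was called in the limma fit at any condition (0 at an unadjusted p below 0.05); Cfp, properdin, which stabilises the convertase that factor B enters, differed by 0.31, 0.07 and 0.06 without LPS, at 1 h and at 4 h. Of 4 complement regulators, Serping1, the C1 inhibitor, was lower in KD without LPS (-1.13 ± 0.21, limma adjusted p = 0.00346). After LPS 0 were called, with 2 higher at an unadjusted p below 0.05 at each time. Serping1 was then higher in KD, though not called, at 155.7 and 170.9 against 119.8 and 113.2 in WT at 1 h. At 4 h it was 153.1 and 162.8 in KD against 107 and 120.2 in WT. Cr1l differed by 0.03 at 1 h and -0.13 at 4 h. The calls of C1ra, C1s1 and Fcna were each lost in 3 of 12 fits that left out 1 array, and that of Serping1 in 0. The Fcna call was also lost after median rescaling.

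The complement receptors that were called between the strains were higher in KD. Of 8 tested, 1 was called higher without LPS, 1 at 1 h and 3 at 4 h, beside 2.37%, 0.573% and 3.13% of all tested probe sets. None was called lower in the limma fit, where 1 was lower at 1 h at an unadjusted p below 0.05. Itgax, an integrin chain of complement receptor CR4, was higher by 1.63 ± 0.25 without LPS (limma adjusted p = 0.000753), 1.12 ± 0.25 at 1 h (adjusted p = 0.034) and 1.30 ± 0.25 at 4 h (adjusted p = 0.00374). At 4 h Itgam, its counterpart in CR3, was higher by 1.5 ± 0.37 (limma adjusted p = 0.0222) and C3ar1, the receptor of the C3a fragment, by 0.41 ± 0.08 (adjusted p = 0.00274). The Itgam signals were low, 69.6 and 62.1 in KD and 11.8 and 33.5 in WT, where the array medians were 20.4 and 18.9. Its call was lost with the filter at the 75th percentile and with a variance prior without trend. The C3ar1 call was lost after median rescaling. Leaving out 1 array lost the Itgax call in 0, 5 and 2 of 12 fits without LPS, at 1 h and at 4 h, the Itgam call in 3 and the C3ar1 call in 2.

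Of 14 tested receptors and partners of the 5 proteins, 2 were called lower in KD without LPS, 2 lower at 1 h and 1 higher at 4 h. The shares of all tested probe sets were 2.87%, 0.533% and 3.13% in that order. Slc40a1, ferroportin, the iron exporter with which the ferroxidase ceruloplasmin works, was lower without LPS (-0.52 ± 0.13, limma adjusted p = 0.0202) and at 1 h (-0.56 ± 0.13, adjusted p = 0.0336). Mmp9, a gelatinase that human lipocalin 2 binds, was lower without LPS (-0.73 ± 0.17, adjusted p = 0.0173). Hmox1, the haem-degrading enzyme induced when haptoglobin delivers haemoglobin, was lower at 1 h (-0.48 ± 0.10, adjusted p = 0.0166). Tlr4 was higher at 4 h (0.50 ± 0.10, adjusted p = 0.00561), a call that was lost after median rescaling. Of 12 fits that left out 1 array, the Slc40a1 calls were lost in 4 without LPS and 6 at 1 h, those of Mmp9 in 3, Hmox1 in 4 and Tlr4 in 2.

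The listed regulators of acute-phase transcription, which include cytokines, receptors, adaptors, transcription factors and inhibitors, split by condition. Of 22 tested, 2 were called higher in KD and 0 lower without LPS, 0 higher and 3 lower at 1 h, and 2 higher and 8 lower at 4 h. The medians were 0.06, -0.18 and -0.31. Of all tested probe sets, 2.37% were called higher and 2.87% lower without LPS, 0.573% and 0.533% at 1 h, and 3.13% and 2.24% at 4 h. Without LPS, Il1b was 30.8 and 41.6 in KD against 8.0 and 10.8 in WT, and Cebpa, a C/EBP factor, was higher by 0.68 ± 0.12 (limma adjusted p = 0.00314). The count of 0 lower without LPS in the limma fit was 2 at an unadjusted p below 0.05. The part of these regulators in the differences of the 5 genes was not tested. At 1 h Il1b and Tnf, which encodes the cytokine TNF, were lower in KD by -1.13 ± 0.18 (adjusted p = 0.00313) and -0.86 ± 0.14 (adjusted p = 0.00338), and both calls were lost in 2 of 12 fits that left out 1 array. After LPS, Il1b reached 2940.5 and 2546.8 at 4 h in WT and 328.5 and 411.7 in KD (-2.88 ± 0.18, adjusted p = 2.14e-08).

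Il6, whose product is the main inducer of liver acute-phase proteins, was 1722.1 and 1779.2 at 4 h in WT and 106.0 and 88.6 in KD (-4.11 ± 0.35, limma adjusted p = 6.77e-07). At 4 h Lif and Tnf were also lower, by -1.92 ± 0.27 (adjusted p = 0.000162) and -1.60 ± 0.14 (adjusted p = 9.96e-07). Nfkbiz, which encodes a nuclear NF-kappaB cofactor required for LPS induction of Lcn2 in macrophages, was 528.4 and 530.8 in untreated WT and 499.8 and 611.1 in untreated KD. At 1 h of LPS it was 3900.5 and 3670.3 in WT and 2410.4 and 2269.6 in KD, a difference of -0.69 ± 0.11 (adjusted p = 0.00266) that was not called without the second KD array at 1 h. Nfkbiz signals at 4 h were 4089.0 and 3284.6 in WT and 2108.1 and 2056.5 in KD. That difference was -0.81 (limma adjusted p = 0.000137), a call kept under all 9 other settings. The part of Nfkbiz in the Lcn2 difference was not tested.

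**Figure D4:**
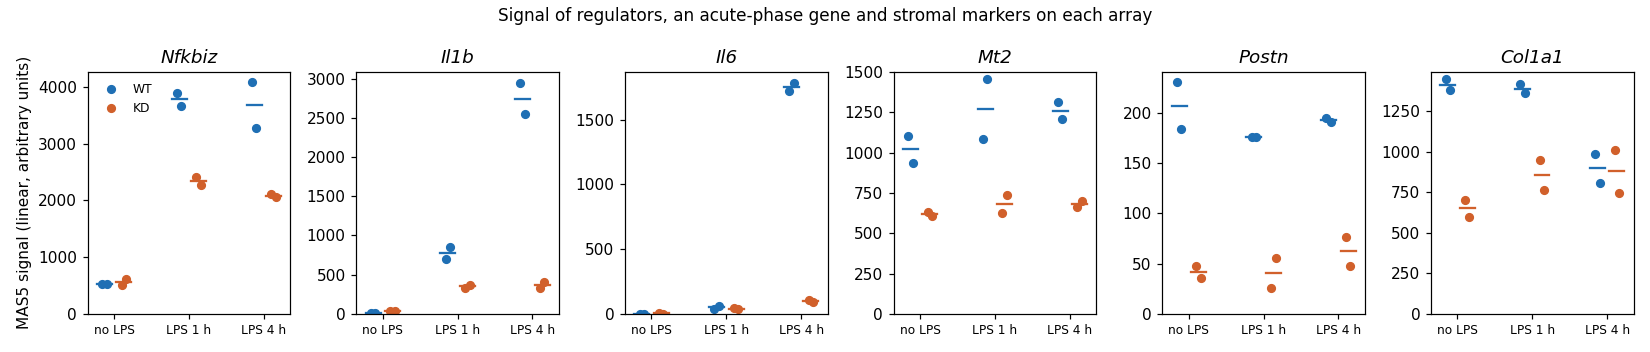
MAS5 signal (linear, arbitrary units, axes from 0) of the regulators Nfkbiz, Il1b and Il6, the acute-phase gene Mt2 and the stromal markers Postn and Col1a1 on each of the 12 arrays, with short lines for the means of the 2 replicates, WT in blue and KD in orange. Nfkbiz overlaps between untreated strains and separates after LPS, Mt2 and Postn are lower on every KD array, and Col1a1 overlaps between strains at 4 h.

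Of 11 annotated macrophage markers, Csf1r lay between 3717.2 and 6060.3 and Lyz2 between 5497.6 and 9038.8, while Mertk lay between 34.4 and 186.3, Itgam between 11.8 and 88.8 and Marco between 3.1 and 33.4. Of the 10 tested, 3 were called higher and 1 lower in KD without LPS, 0 and 1 at 1 h, and 1 and 1 at 4 h. The shares of all tested probe sets in that order were 2.37% and 2.87%, 0.573% and 0.533%, and 3.13% and 2.24%. Mrc1, the mannose receptor, was the lower one each time, by -1.21, -1.06 and -0.88 (limma adjusted p = 5.33e-05, 0.000373 and 0.00064), and Csf1r, Lyz2 and Cd14 were the higher ones without LPS, by 0.44, 0.50 and 0.40, calls that were all lost after median rescaling. Their summed signal was 18555 to 23539 on WT arrays and 20513 to 26271 on KD arrays, and the part of these differences in those of the 5 genes was not tested. Stromal cell markers also differed between the strains, with a split that changed by condition. Of 13 tested, 0 were higher and 6 lower in KD without LPS, 2 higher and 4 lower at 1 h, and 3 higher and 1 lower at 4 h. Their summed signal was 7568 to 7929 in WT and 4512 to 5413 in KD without LPS, 7934 to 7970 and 5965 to 7412 at 1 h, and 6834 to 7147 and 7844 to 7906 at 4 h. At 4 h the stromal sum was higher on both KD arrays than on the WT arrays. Bright genes weigh most in such a sum: Acta2 averaged 3126.0 in WT and 3192.1 in KD at 4 h. Postn, a matrix protein, was the stromal marker called lower at all 3 conditions, between 25.7 and 76.3 in KD and 175.5 and 230.3 in WT. Dcn, a matrix proteoglycan, was called lower at 1 h (-2.04, limma adjusted p = 0.0213, lost in 3 of 12 fits that left out 1 array), and it lay between 9.0 and 52.1 on KD arrays and 65.5 and 109.6 on WT arrays. Col1a1 was 1415.6 in WT and 651.1 in KD on average without LPS and 897.3 and 879.4 at 4 h. Col6a2 and Thbs2 were called higher in KD at 1 h, by 0.95 and 0.93 (limma adjusted p = 0.0173 and 0.0117). At 4 h Col6a1, Col6a2 and Thbs2 were called higher, by 1.01, 1.06 and 0.73 (adjusted p = 0.000861, 0.00248 and 0.0199). The Thbs2 call at 4 h was lost after median rescaling. The part of stromal cells in the acute-phase differences was not tested beyond these values.

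Of 12 annotated neutrophil and precursor markers, 4 were tested and 1, S100a8, was called, higher in KD at each condition. Their summed signal was 1268 to 1601 on the WT arrays and 2168 to 3047 on the KD arrays, and S100a8 itself was 742.0 to 902.4 and 1689.7 to 2390.2. Mmp8, a neutrophil collagenase, lay between 303.8 and 681.9 on all arrays, with differences of 0.26, -0.28 and -0.19 without LPS, at 1 h and at 4 h, and Camp, a granule peptide, between 10.8 and 85.8, with differences of -0.79, -0.78 and -0.37; none of these was called. The granule genes Ngp, Ltf, Elane and Mpo, and S100a9, were at most 33.1 on any array. The part of neutrophils, which carry lipocalin 2 in their granules, in the Lcn2 difference was not tested. The liver marker Alb lay between 5.7 and 45.1, and the liver markers summed to 70.5 to 159.9 on WT arrays and 125.3 to 212.6 on KD arrays. The markers of epithelial, B, T and NK, dendritic, erythroid and mast cells summed to at most 209 for any list on any array.

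The tested genes whose log2 signal most resembled each member over the 12 arrays are given by Pearson's r as a description, since the arrays share strain and treatment. The 12 include the untreated arrays that chose Lcn2, Saa3 and Cfb, so likeness among these genes was partly set by the choice. For Saa3 they were Cfb (0.946), Postn (0.946) and Lcn2 (0.929), and for Cfb they were Mt2 (0.961), Saa3 (0.946) and Eif2s3y (0.919). Lcn2 was most like Bmper (0.951), Zbtb11 (0.951) and Kcnq5 (0.930). Hp was most like Cflar (0.975), Fstl1 (0.972) and Mmp9 (0.966), and Cp like Egfr (0.966), Fstl1 (0.949) and Sbno1 (0.940). Saa3 and Cfb thus had other members among their 3 nearest genes, Lcn2, Hp and Cp had none, and Hp and Cp shared Fstl1. Eif2s3y is on the Y chromosome, and its signal was 248.5 to 321.7 on KD arrays and 757.8 to 894.4 on WT arrays. The sex of the animals is not given, and its part in the strain differences of the 5 genes was not tested.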

How the data were processed

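RNA from 12 cultures was measured on 12 one-colour arrays. The deposited intensity values are linear MAS5 signals, per the submitters' processing notes, and the authors' table holds 45101 probe sets; scan dates and scanner files were not used here. Of these, 34958 had 1 gene symbol in the platform annotation, 932 several and 9211 none. The 27931 probe sets tested exceeded the median of the array on 2 or more of the 12 arrays; 64 array controls were left out. Values were taken as log2(signal + 4.4), 4.4 being the 20th percentile of all values, and fitted with limma 3.58.1 in R 4.3.3 (6 group means, eBayes with trend, Benjamini-Hochberg over all tested probe sets). The methods were tested on simulated data.

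Where a gene had several tested probe sets, the brightest on average stood for it, with identifiers free of _x_, _s_ or _a_ preferred. The members and gene lists were chosen with earlier results of these data known, so members have no test in the untreated strain comparison, and Lcn2, Saa3 and Cfb have none against untreated arrays. Named genes are the members, up to 4 called genes of each list with the largest change per strain comparison (or the brightest gene where none was called), and the 3 genes most correlated with each member; Nfkbiz at 4 h, Orm1, marker genes and the untreated Nfkbiz values were added after their values were seen. With 2 arrays a group, an exact permutation test cannot reach 0.05, and the number of arrays limits the precision. Alternatives were other scalings, pseudocounts, filters, variance priors, a replicate block and leaving out each array.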

Additional observations from a re-analysis of the deposited data

Results flagged for a closer look

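Il1b, which encodes an inducer of acute-phase genes, differed between the strains in opposite directions with and without LPS. The log2 difference KD minus WT was 1.55 without LPS, -1.13 at 1 h and -2.88 at 4 h. The KD response minus the WT response against no LPS was -2.68 ± 0.26 at 1 h and -4.43 ± 0.26 at 4 h. These are a description with no p, because Il1b was picked for its opposite calls on the same arrays. Its untreated signals were low, 8.0 and 10.8 in WT and 30.8 and 41.6 in KD. The cause was not tested.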

How the results depend on the processing

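Lcn2, Saa3 and Cfb remained lower in KD at 1 h and 4 h under every alternative run. With the arrays rescaled to a common median, 5 of the 5 genes were called lower at 1 h, beside 12.7% of all tested probe sets (0.533% in the main fit). From 1 h to 4 h in WT 2 were called higher, beside 9.78%. The other lists then had 11, 20 and 26 genes called lower in KD without LPS, at 1 h and at 4 h (7, 7 and 9 in the main fit). The shares of all tested probe sets were 8.97%, 12.7% and 14.8%. These lists had 5 genes higher at 4 h (8), beside 1.42%. With a variance prior without trend, 1 gene was called higher from 1 h to 4 h in KD (4), 1 of Hp and Cp at 4 h against no LPS in WT (2), and the other lists had 0 lower and 1 higher without LPS, 0 and 0 at 1 h, and 2 higher at 4 h. Fitted on only the arrays compared, 2 were called higher from 1 h to 4 h in WT, 1 of Hp and Cp at 1 h against no LPS in WT (0), and the lists had 3 lower without LPS and 0 higher at 1 h (1). With the median as pseudocount, 1 of Hp and Cp was called at 1 h in WT, and with the filter at the 75th percentile 1 was called and the lists had 5 higher without LPS (3). With no filter the lists had 0 higher at 1 h. At the low-signal probe sets 1448735_at and 1417497_at the WT change of Cp at 4 h against no LPS was -0.054 and -0.121. Neither was called (limma adjusted p = 0.951 and 0.900). The cause of these changes was not tested.

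Leaving out each array in turn gave 1 to 2 genes called higher from 1 h to 4 h in WT and 2 to 4 in KD. Of Hp and Cp, it gave 0 to 1 at 1 h and 1 to 2 at 4 h against no LPS in WT, and 1 to 2 at 1 h in KD. In the other lists it gave 1 to 8 lower and 2 to 6 higher without LPS, 2 to 8 lower and 0 to 1 higher at 1 h, and 3 to 8 higher at 4 h. A lone array was assumed to vary like the other groups.

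Same-numbered arrays of different groups did not deviate together over the tested probe sets (r -0.07 to 0.04 over 15 pairs of groups). The labels used here do not say whether such arrays share an animal. An r over all tested probe sets cannot exclude a pairing that acts on few genes. With the replicate block, 3 of 5 genes were called lower at 1 h and 3 at 4 h, and no call of the 5 genes changed.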
